A study of Mus musculus with 6 samples.

Results

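Ifit1, Ifit2 and Ifit3 are 3 of the interferon-induced genes with tetratricopeptide repeats, and they were examined here in ovarian secondary follicles of young and of old mice. The genes were chosen by their higher array values in the old follicles, so the difference between the ages in these 3 genes is given as a description, without a test. Their members were all probe sets whose single annotated gene symbol was Ifit1, Ifit2 or Ifit3. Each gene had 1 such probe set, which gave 3 of the 34945 probe sets with a single symbol and 3 of the 18193 genes. The follicles came from specific pathogen-free female mice of the C57BL/6J strain, at 9 weeks (young) or 32 weeks (old), with no genetic change and no treatment named in either group. They were dissected with needles from the ovary, and RNA from 3 samples of each age was hybridized to Affymetrix 3' expression arrays for the mouse genome, 1 array per sample. The samples are labelled as biological replicates, but the sources used here give no number of mice or follicles behind each, so the spread between samples may be partly technical. Each probe set joins several short probes, mostly near a transcript's 3' end, and its value is the intensity after robust multiarray averaging (RMA), given here on the log2 scale.

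Ifit proteins are almost absent from most resting cells and accumulate when interferon or viral RNA is sensed. Secreted interferons bind their receptors, the Janus kinases at these receptors become active, and the factor ISGF3, which contains STAT2 and IRF9, binds the interferon-stimulated response element in the promoters of Ifit and other genes. IRF3 and IRF7, activated downstream of the RNA sensors, act at the same element. Ifit1 binds capped RNA whose first nucleotide lacks a methyl group on its ribose, a feature of many viral RNAs, and hinders its translation. Ifit2 binds double-stranded RNA rich in A and U, both proteins bind the translation initiation factor eIF3, and Ifit3 pairs with other Ifit proteins and links the adaptor MAVS to the kinase TBK1. A secondary follicle holds a growing oocyte and layers of granulosa cells, with theca cells forming outside them.

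The promoters are shown first because the 3 genes moved together and their regulator is known to bind a short element there. In the RefSeq promoter table (build GRCm38.p6), a promoter window holds 250 bases before and 50 bases after an annotated start site, and all 6 mouse Ifit genes matched the table by symbol, with 9 windows. The element searched was GAAANNGAAA, where N is any base, on both strands, so that its reverse complement TTTCNNTTTC was counted too. Matches are in capitals. The Ifit1 window lay on the plus strand at chr19:34640639-34640938, the Ifit3 window on the plus strand at chr19:34583279-34583578, and the Ifit2 windows on the plus strand at chr19:34550444-34550743 (start 1) and chr19:34550838-34551137 (start 2).
Ifit1: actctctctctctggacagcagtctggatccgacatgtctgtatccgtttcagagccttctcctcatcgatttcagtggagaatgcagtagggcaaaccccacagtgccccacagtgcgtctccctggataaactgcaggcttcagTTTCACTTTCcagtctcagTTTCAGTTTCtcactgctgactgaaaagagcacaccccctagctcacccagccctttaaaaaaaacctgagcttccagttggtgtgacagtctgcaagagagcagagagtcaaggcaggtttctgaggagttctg
Ifit3: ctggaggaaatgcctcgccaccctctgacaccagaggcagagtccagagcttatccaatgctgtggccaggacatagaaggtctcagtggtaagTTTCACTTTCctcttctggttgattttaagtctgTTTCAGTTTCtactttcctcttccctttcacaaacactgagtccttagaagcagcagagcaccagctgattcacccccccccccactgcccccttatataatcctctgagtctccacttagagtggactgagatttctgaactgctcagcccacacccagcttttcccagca
Ifit2, start 1: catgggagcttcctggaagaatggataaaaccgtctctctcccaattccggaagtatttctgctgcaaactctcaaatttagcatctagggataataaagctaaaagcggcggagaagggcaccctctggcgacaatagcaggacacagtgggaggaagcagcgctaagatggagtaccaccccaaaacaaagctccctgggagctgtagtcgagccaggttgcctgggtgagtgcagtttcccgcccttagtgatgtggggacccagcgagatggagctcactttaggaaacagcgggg
Ifit2, start 2: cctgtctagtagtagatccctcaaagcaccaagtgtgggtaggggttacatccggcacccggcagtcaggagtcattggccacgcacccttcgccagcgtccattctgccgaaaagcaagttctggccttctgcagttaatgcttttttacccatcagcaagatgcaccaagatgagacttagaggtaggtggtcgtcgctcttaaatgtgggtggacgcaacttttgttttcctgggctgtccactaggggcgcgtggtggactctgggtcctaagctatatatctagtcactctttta

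The Ifit1 window held 2 matches, which ended 95 and 76 bases before the start site. The Ifit3 window also held 2 matches, ending 147 and 113 bases before its start. Over all 32851 windows of the table, 3.44% held at least 1 match and 0.225% held 2 or more. Neither Ifit2 window held a match, which says only that these letters are not in these windows. The stretches around the matches of Ifit1 and Ifit3 are set beside those of the paralogs because they recur within the family.
Ifit1: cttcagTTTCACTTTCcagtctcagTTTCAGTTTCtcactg
Ifit1bl2, start 2: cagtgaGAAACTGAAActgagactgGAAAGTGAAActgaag
Ifit3: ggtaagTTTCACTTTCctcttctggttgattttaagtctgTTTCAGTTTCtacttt
Ifit3b: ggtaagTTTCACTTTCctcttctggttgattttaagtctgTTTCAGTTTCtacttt
Ifit1bl1, start 2: tgtaggTTTCATTTTCtgtagg

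The Ifit1bl2 stretch is that of Ifit1 read from the other strand. The start sites of Ifit1 and Ifit1bl2 point away from each other, 146 bases apart, and their windows share 245 bases and the same pair of matches. The stretch of Ifit3b is identical to that of Ifit3, and the whole windows of both genes were 99.2% identical over 260 aligned bases. Both windows of Ifit1bl1 held 1 match, which ended 95 bases before its second start and 14 bases before the other. The window at the first start of Ifit1bl2 held none. A match is a description of letters, and binding was not measured.

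**Figure D1:**
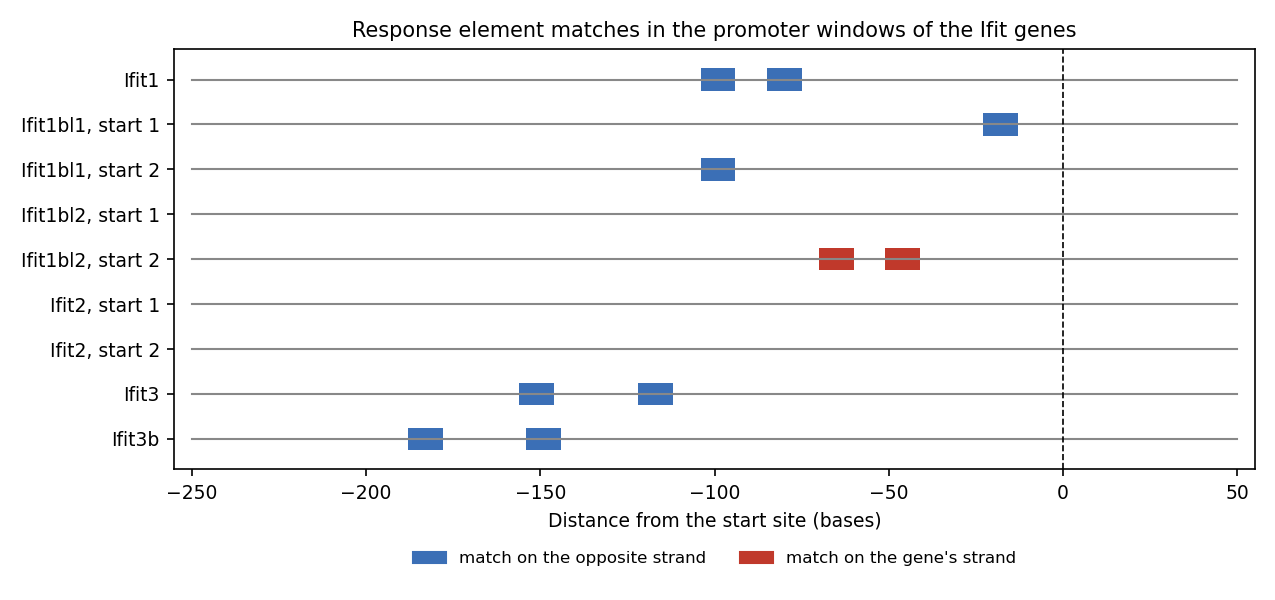
Matches to the response element in the 9 promoter windows of the Ifit genes, with the distance from the start site in bases on the horizontal axis (dashed line at the start) and 1 line per window. Ifit1 and Ifit3 hold 2 matches each, the Ifit2 windows hold none, and the matches of Ifit1bl2 at its second start are those of Ifit1 seen from the other strand.

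In the arrays, Ifit1, Ifit2 and Ifit3 were higher in every old sample than in any young sample. The Ifit1 probe set was at 3.47, 3.27 and 3.42 in the 3 young samples and at 8.79, 8.97 and 8.91 in the 3 old samples. All young values of Ifit1 sat low and close together, and the nearest old and young values were 5.33 apart. The means were 3.39 ± 0.10 and 8.89 ± 0.09 (log2 intensity, SD, n = 3 each), a difference of 5.51 (standard error 0.08), which is 45.4-fold on the linear scale. This was the largest log2 difference toward higher values among the 18193 genes.

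Ifit3 was at 4.31, 3.80 and 3.71 in the young samples and at 8.39, 8.30 and 8.27 in the old samples. Young replicate 1 stood above the other young samples, and the groups stayed 3.95 apart. The means of Ifit3 were 3.94 ± 0.33 and 8.32 ± 0.06 (SD, n = 3 each), a difference of 4.38 (standard error 0.15) or 20.8-fold, with the third largest difference of all genes. Without young replicate 1, the difference of Ifit3 was 4.57.

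Ifit2 had the smallest difference of the 3 genes and the tightest replicates. Its probe set was at 4.84, 4.78 and 4.78 in the young samples and at 6.72, 6.74 and 6.71 in the old samples. The means were 4.80 ± 0.04 and 6.72 ± 0.015 (SD, n = 3 each), a difference of 1.93 (standard error 0.06) or 3.80-fold, ranked 32 of 18193. By these values the differences ran in the order Ifit1, Ifit3, Ifit2. The 3 probe sets differ in sequence, and probe sets near the floor of the array compress a change, so the order belongs to these probe sets and is not a ratio of transcript numbers.

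On the linear scale, Ifit1 ran from 9.67 to 11.04 in the young and from 443.3 to 500.7 in the old samples. Ifit3 ran from 13.1 to 19.9 and from 308.5 to 335.8, and Ifit2 from 27.4 to 28.6 and from 104.4 to 106.6. The young level of Ifit1 exceeded between 27.6% and 30.3% of all 45101 probe sets on its array, and its old level exceeded between 90.4% and 91.4%. Ifit3 went from between 34.1% and 42.4% to between 86.4% and 87.4%. Ifit2 went from between 48.0% and 48.9% to between 70.7% and 71.1%. Ifit1 and Ifit3 therefore started in the dim part of the young arrays, where RMA gives no detection call, and a true absence in the young follicles could not be told from a low level.

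**Figure D2:**
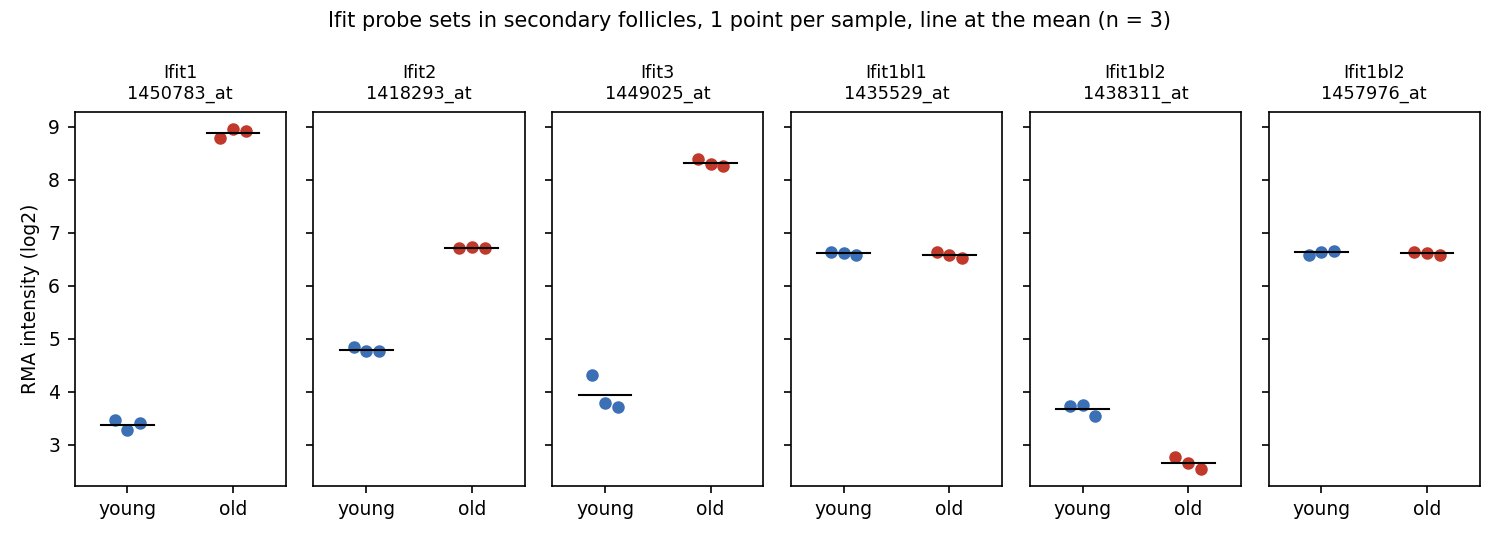
RMA intensity (log2, vertical axis) of every Ifit probe set with a single gene symbol, with 1 point per sample, young in blue and old in red, and a line at the mean of 3 samples. Ifit1, Ifit2 and Ifit3 separate by age without overlap, the brighter probe sets of Ifit1bl1 and Ifit1bl2 overlap, and the dim probe set of Ifit1bl2 is lower in the old samples; levels of different probe sets are not comparable.

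Genes were tested for a difference between the ages with limma's moderated test over all 18193 genes, with the brightest probe set on average standing for the gene, and the call required a fold of 2 or more together with a Benjamini-Hochberg adjusted p of 0.05 or less. By this rule 0.638% of all genes were called higher and 0.126% lower in the old follicles. With the adjusted p alone and no fold minimum, 10.1% of all genes were higher and 13.3% lower, and with an unadjusted p below 0.05 these shares were 16.9% and 20.4%. All 3 Ifit genes met it, under each of the 18 settings run, but since they were chosen on this contrast, nothing is read from that count. Groups did not overlap in 42.5% of all genes, so the lack of overlap in the Ifit genes is common in these arrays. Young replicate 1 held the highest young value of all 3 Ifit genes. Among the other 113 genes called higher, it held the highest young value in 54.

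The measured paralogs of the cluster were not called higher beside Ifit1, Ifit2 and Ifit3. Ifit1bl1, a gene similar to Ifit1, was at 6.64, 6.62 and 6.59 in the young samples and at 6.64, 6.58 and 6.52 in the old samples. The groups overlapped, and the difference was -0.04 (standard error 0.06, adjusted p = 0.66 from limma). Ifit1bl2, whose annotated start lies beside that of Ifit1, was at 6.59, 6.65 and 6.67 in the young and at 6.64, 6.62 and 6.58 in the old samples by its brighter probe set. These groups overlapped as well, with a difference of -0.02 (standard error 0.06, adjusted p = 0.78). Its dimmer probe set was at 3.73, 3.75 and 3.55 in the young and at 2.77, 2.65 and 2.55 in the old samples. This was a fall of 2.03-fold (log2 difference -1.02, standard error 0.08, adjusted p = 2.5e-04 from limma over all probe sets with a single symbol), where 0.552% of probe sets were called lower. In the old samples this dim probe set exceeded only 11.9% to 16.3% of the probe sets on its array. The brighter probe sets of Ifit1bl1 and Ifit1bl2 were at 0.02 and 0.03 after a further quantile normalization and at 0.02 and 0.04 after cyclic loess, so the sign of their differences is not settled. Ifit3b had no probe set of its own with a single symbol and was not analysed here, and whether probes of the Ifit3 probe set also match Ifit3b was not tested.

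None of the measured genes for interferons, the signals that induce Ifit genes, was called in either direction. Their median level was 3.23 in young and 3.22 in old follicles, while the lower quartile of the arrays ran from 3.13 to 3.24. Changes are compressed at such low levels, so the lack of calls does not show that these genes were unchanged. In addition, only 0.638% of all genes were called higher and 0.126% lower, so 0 calls in a list this short is common. Of 10 measured interferon genes among 21 listed, limma called 0, as did SAM (with an unadjusted p below 0.05, 2 were higher and 0 lower), and their median log2 difference was 0.01 against -0.004 over all genes. Ifnb1, the interferon beta gene, was at 3.35, 3.05 and 3.29 in the young and at 2.82, 3.18 and 3.33 in the old samples, with overlapping groups (difference -0.12, standard error 0.14). Ifng, the interferon gamma gene, was near the lowest values of the array in both groups (1.96 ± 0.08 and 1.94 ± 0.05, log2, SD, n = 3 each). Ifnz, a type I interferon gene also known as limitin, came nearest to a call. It was at 5.08, 5.07 and 4.91 in the young and at 6.05, 6.03 and 5.88 in the old samples. The difference of Ifnz was 0.96 (standard error 0.07, adjusted p = 2.7e-04 from limma), just under a fold of 2, and it was called without old replicate 3. Ifna2, an interferon alpha gene, differed by 0.53 (standard error 0.08, adjusted p = 0.0038). Ifne, the epithelial interferon epsilon gene, was not analysed here.

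All 9 listed genes for interferon receptor chains and Janus kinases were measured. By the brightest probe set of each gene, limma and SAM called 0 of them, where limma called 0.638% of all genes higher and 0.126% lower. With an unadjusted p below 0.05 from limma, 3 were higher and 1 lower, against 16.9% and 20.4% of all genes. The differences of the 9 genes ran from -0.20 to 0.19. Ifnar1, the first chain of the type I receptor, differed by 0.06 (standard error 0.05, adjusted p = 0.46). Ifnar2, its partner, differed by -0.20 by its brightest probe set (standard error 0.06, adjusted p = 0.045). The dimmer probe sets of Ifnar2 were at 0.46 (adjusted p = 0.012 from limma over all probe sets with a single symbol) and -0.04, neither of them called. Jak1, the kinase shared by several interferon receptors, also gave different answers by probe set. Its brightest probe set on average differed by 0.19, while its other probe sets fell by 1.003 (adjusted p = 1.6e-04 from limma over all probe sets with a single symbol) and by 1.28 (adjusted p = 3.4e-05), and both were called lower.

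Among the RNA sensors and the MAVS-TBK1 relay, 4 of 13 measured genes were called higher and 9 were not called in either direction. The median of the list was 0.08. The called genes were all sensors or their homologs. Ddx58, which encodes RIG-I, rose by 1.28 (standard error 0.06, adjusted p = 3.2e-05 from limma), and Ifih1, which encodes MDA5, rose by 1.66 (standard error 0.08). Dhx58, which encodes the related helicase LGP2, rose by 1.90 (standard error 0.09), and Tlr3, the endosomal receptor for double-stranded RNA, rose by 1.18 (standard error 0.09). The dimmer probe sets of Dhx58 were at -0.10 and 0.11 and that of Tlr3 at 0.22, none of them called. Those of Ddx58 were at 1.80, which was called higher (adjusted p = 7.6e-05 from limma over all probe sets with a single symbol), and at 0.81, which was not. When the probe sets of each gene were averaged, 2 genes of the list were called. Mavs, the adaptor that Ifit3 binds, differed by -0.42 by its brightest probe set (standard error 0.05, adjusted p = 0.0021) and was under a fold of 2. The dimmer probe set of Mavs was at -0.11 (adjusted p = 0.47 from limma over all probe sets with a single symbol). Tbk1, the kinase on the other side of that link, was at 9.01 ± 0.02 and 9.03 ± 0.07 (SD, n = 3 each), with overlapping groups.

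Of the transcription factors at the response element, 2 of 9 measured genes were called higher, Irf7 and Irf9, none was lower, and the median was 0.14. Irf7, which drives a second wave of interferon signaling, was at 5.39, 4.84 and 4.83 in the young and at 7.46, 7.47 and 7.10 in the old samples. As with Ifit3, young replicate 1 was the highest of the young samples. The difference of Irf7 was 2.33 (standard error 0.17, adjusted p = 2.2e-04 from limma). Irf9, the DNA-binding subunit of ISGF3, was at 5.97, 5.78 and 5.97 in the young and at 6.99, 7.06 and 7.07 in the old samples, a rise of 1.14 (standard error 0.07, adjusted p = 8.5e-05). Both were measured only by probe sets shared between transcripts. Stat2 differed by 0.18 (standard error 0.11, adjusted p = 0.29) with overlapping groups, and Irf3 by 0.10 (standard error 0.05, adjusted p = 0.22), each by its brightest probe set. The dimmer probe set of Stat2 was at -0.23. Those of Irf3 were at -0.06, -0.46 (adjusted p = 0.0047 from limma over all probe sets with a single symbol) and 0.11, none of them called.

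Among the other interferon-induced proteins that act on RNA, 8 of 18 measured genes were called higher and the remaining 10 were not called. The median of this list was 0.84. Oasl2, of the oligoadenylate synthetase family, rose by 3.11 (standard error 0.06, adjusted p = 2.9e-07 from limma), from between 5.06 and 5.17 to between 8.17 and 8.28. Ddx60, a helicase that helps RIG-I, rose by 1.76 (standard error 0.06), and Eif2ak2, the RNA-dependent kinase PKR, by 1.20 (standard error 0.05), while dimmer probe sets of Eif2ak2 were at 0.28 and 0.57 and not called. Isg20, an exonuclease, rose by 1.88 (standard error 0.09). The other 4 were Oas1a, Oas2, Zbp1 and Slfn8, with rises from 1.51 to 2.84. Without the genes of mean intensity under the array median, 4 of the list were called.

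Of 9 measured genes for inhibitors of the pathway, 2 were called higher, Usp18 and Socs3, and none lower, with a median of 0.05. Usp18, the protease that removes ISG15 and blocks the type I receptor, was at 3.66, 4.30 and 4.14 in the young and at 8.06, 8.32 and 8.15 in the old samples. Here young replicate 1 was the lowest of the young samples, unlike in Ifit3 and Irf7. The rise of Usp18 was 4.14 (standard error 0.16, adjusted p = 9.6e-06 from limma). Socs3 rose by 1.08 (standard error 0.08, adjusted p = 2.7e-04), while its other probe sets were at 0.85 and 0.84, under a fold of 2. Socs1 differed by -0.55 (standard error 0.06, adjusted p = 0.0014) and was not called.

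The genes for eIF3, which Ifit1 and Ifit2 bind, and for enzymes of the mRNA cap were not called. Limma and SAM called 0 of 11 measured eIF3 subunit genes, where limma called 0.638% of all genes higher and 0.126% lower. With an unadjusted p below 0.05 from limma, 0 were higher and 5 lower, against 16.9% and 20.4% of all genes. The median of the eIF3 genes was -0.10. Eif3m came nearest, at 9.82, 9.90 and 9.90 in the young samples and at 8.88, 8.91 and 8.98 in the old ones (difference -0.95, standard error 0.05, adjusted p = 6.9e-05), without overlap. Of 7 genes that make, methylate or remove the mRNA cap, both tools called 0 (with an unadjusted p below 0.05, 1 was higher and 1 lower). Their median was -0.07. Cmtr1, the enzyme that adds the ribose methyl group whose absence Ifit1 recognizes, was at 7.70 ± 0.05 and 7.62 ± 0.13 (SD, n = 3 each) by its brightest probe set. Its difference was -0.07 (standard error 0.08, adjusted p = 0.52), and its 3 dimmer probe sets were at -0.16, 0.21 and 0.37.

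**Figure D3:**
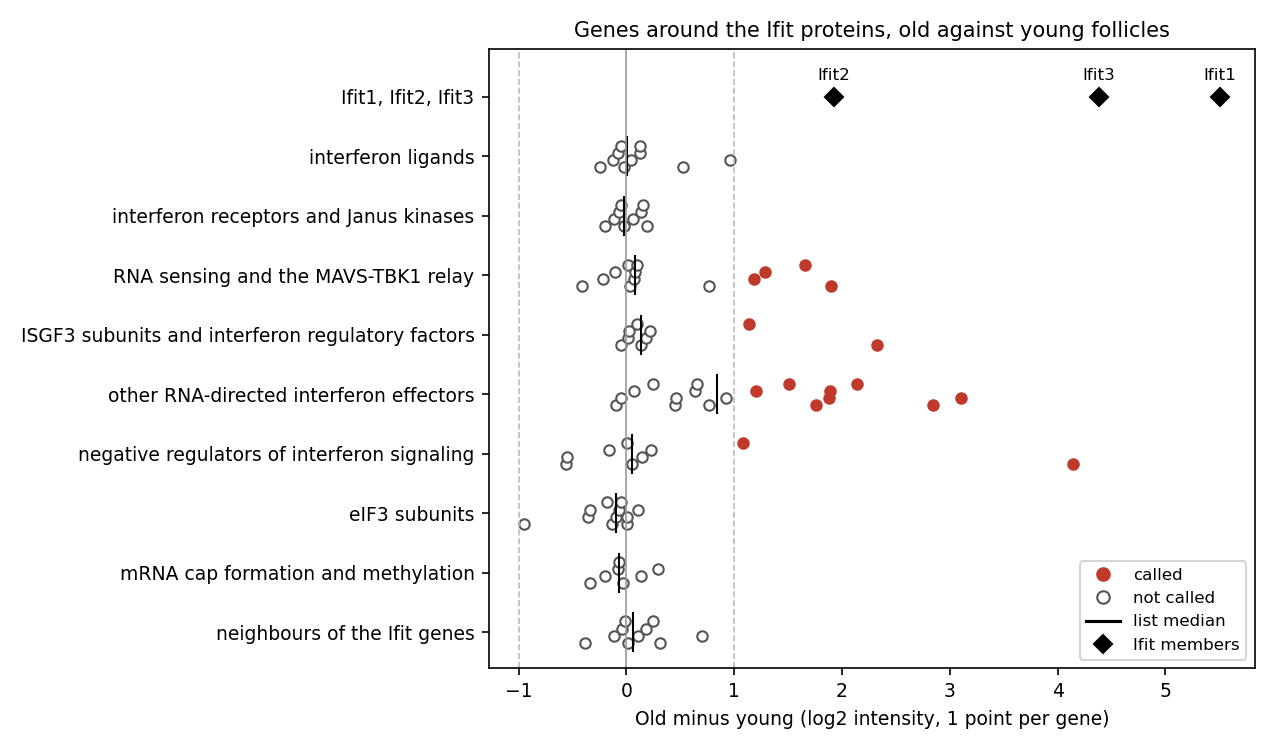
Difference between old and young follicles (log2 intensity, horizontal axis) for Ifit1, Ifit2 and Ifit3 (diamonds) and for each measured gene of the lists by its brightest probe set (circles, filled where called), with a line at each list's median and dashed lines at a fold of 2. The called genes lie among the sensors, factors, effectors and feedback inhibitors, and none lies among the ligands, receptors, eIF3 subunits, cap enzymes or neighbours. Over all genes 0.638% were called higher and 0.126% lower, so a short list without a call is common.

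None of the genes that flank the cluster was called. Along chromosome 19 the RefSeq order is Ifit2, Ifit3, Ifit1bl1, Ifit3b, Ifit1bl2 and Ifit1, with Lipa, Ch25h, Fas, Acta2 and Stambpl1 on the side of Ifit2 and Slc16a12, Pank1, Kif20b, Htr7 and Rpp30 on the side of Ifit1. All 10 of these neighbours were measured, and limma and SAM called 0, where limma called 0.638% of all genes higher and 0.126% lower. At these shares, 0 calls in a list this short is common. With an unadjusted p below 0.05 from limma, 3 were higher and 1 lower, against 16.9% and 20.4% of all genes. The median of the neighbours was 0.06. Acta2, the smooth muscle actin gene, came nearest at 0.70 (standard error 0.06, adjusted p = 4.4e-04 from limma). Rpp30, which encodes a subunit of ribonuclease P, differed by -0.39 (adjusted p = 0.0023) and Lipa, the lysosomal acid lipase gene, by 0.31 (adjusted p = 0.029). The other 7 neighbours ran from -0.11 to 0.24 with adjusted p of 0.11 or more. Ch25h, itself known as interferon-inducible, was at 2.47 ± 0.24 and 2.48 ± 0.06 and differed by 0.01 (standard error 0.11, adjusted p = 0.94).

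Genes whose promoter window held the element were counted over the whole array. Of 14452 tested genes with a window in the table, 524 held a match, and 24 of them (4.58%), Ifit1 and Ifit3 included, were called higher and none lower. Of the 13928 without a match, 58 (0.416%), Ifit2 included, were called higher and 13 lower. The median log2 difference was 0.03 with and -0.01 without a match. The longer form GAAANNGAAACT occurs in 0.27% of windows. Of 44 tested genes that held it, 15 were called higher, Ifit1 and Ifit3 included, with a median of 0.39. Of the 14408 without it, 67 (0.465%), Ifit2 included, were called higher, with a median of -0.007. The promoter table held a window for 82 of the 116 genes called higher. Both matches of Ifit1 and the farther match of Ifit3 have this longer form. No test of this share was made, since Ifit genes belong to the group.

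The genes most like each Ifit gene were named by the root mean square difference between log2 profiles over the 6 samples, each centred on its own mean. For Ifit1 the nearest were Fosb (0.254), Ifit3 (0.592), Usp18 (0.725), Rsad2 (0.810) and Jun (0.963), where Rsad2 encodes the antiviral enzyme viperin and Fosb and Jun are subunits of the transcription factor AP-1. For Ifit3 they were Rsad2 (0.297), Usp18 (0.406), Jun (0.429), Ifi27l2a (0.549) and Fos (0.561). Ifit2 had closer companions, namely Btg2 (0.0573), Irgm2 (0.0702), Lgals3bp (0.0752), Star (0.0779) and Igtp (0.0840), of which Btg2 is an antiproliferative gene, Irgm2 and Igtp are immunity-related GTPases and Star carries cholesterol for steroid synthesis. The profiles hold little beyond the step between the ages, so the measure finds genes with a step of like size, and interferon-induced genes and others appear side by side. Of the 5 nearest genes of Ifit2, the promoter table held 4, with 1 match in Irgm2, 1 in Igtp and 0 in Btg2 and Lgals3bp. Among those of Ifit1 and Ifit3, Ifit3 had 2 matches, Rsad2 had 1, and Fosb, Jun and Fos had 0. Usp18 and Ifi27l2a were not in the promoter table. Over all tested genes with a window, 3.63% held a match.

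**Figure D4:**
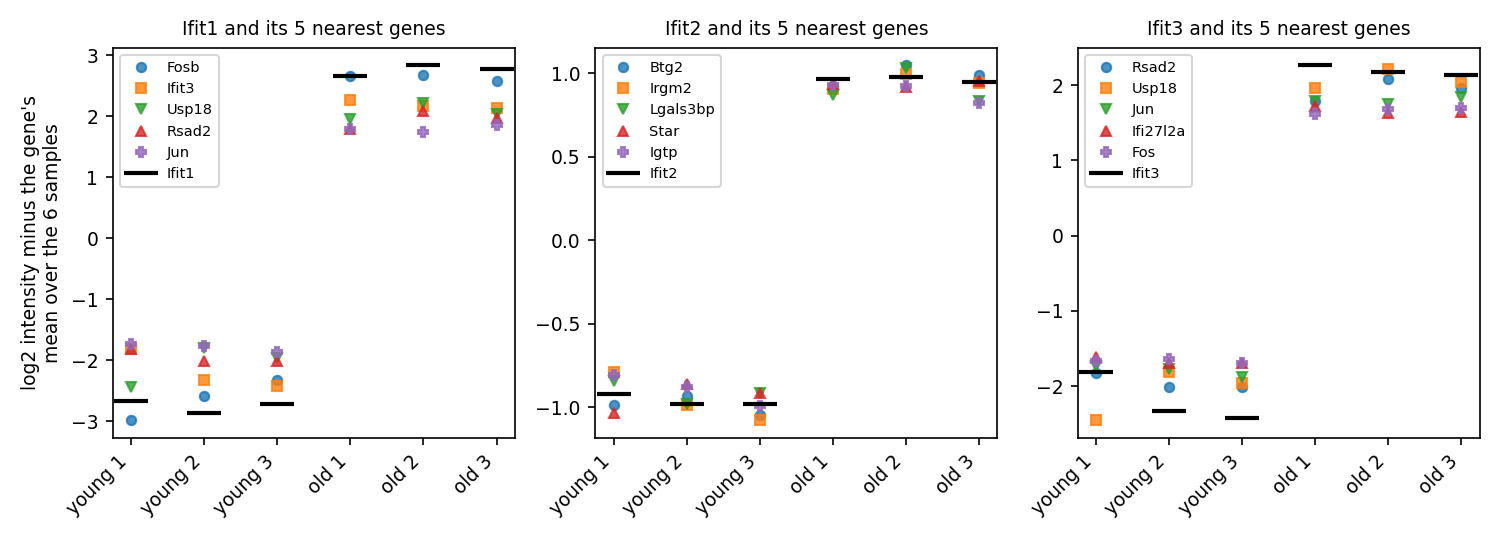
Log2 intensity minus the gene's mean over the 6 samples (vertical axis) for each Ifit gene (black bars) and its 5 nearest genes (symbols), by sample. The profiles of Ifit2 and its nearest genes lie closest together, with root mean square differences from 0.0573 to 0.0840, while those of Ifit1 lie up to 0.963 apart.

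Other measures also moved with age in these samples. For the labelled tissue, the median value of the 10 oocyte markers was 11.5 in young and 11.3 in old follicles and that of the 10 granulosa cell markers 11.1 and 11.2 (log2 intensity). None of the markers of either list was called, and 8 oocyte markers were lower with an adjusted p of 0.05 or less and a fold under 2. By the same measure, 2 granulosa cell markers were higher and 1 was lower. Over all genes, 10.1% were higher and 13.3% lower at that adjusted p with any fold. Calls, which need a fold of 2, took in 0.638% and 0.126%. The marker counts here and below stand beside these shares. Of 14 macrophage and monocyte markers, 2 were called higher, Mpeg1 (1.30) and Ctss (1.36), and the summed linear intensity of the list went from between 451.9 and 463.3 to between 675.5 and 706.8. With no fold minimum, 8 of the 14 were higher at an adjusted p of 0.05 or less, among them C1qa (0.78), Csf1r (0.78) and C1qc (0.70), and 1 was lower, Lyz2 (-0.32). Adgre1 (0.20), Cd68 (0.20) and Itgam (-0.01) were among the 5 that did not pass. Values varied by probe set, with the dimmer ones of Csf1r at 0.21 and 0.10. Those of C1qb were at 0.61 and 0.95, against 0.19 for its brightest. Of 8 surface epithelium markers, 4 were called higher, Krt19 (1.55), Krt7 (1.63), Upk3b (1.17) and Upk1b (1.04), and the sum of the list went from between 817.2 and 850.9 to between 1180 and 1255. At an adjusted p of 0.05 or less and any fold, all 8 were higher. Of 5 theca markers measured among 7 listed, Star (1.87) and Cyp11a1 (1.34) were called higher and Cyp17a1 (-0.11) was not. The dimmer probe sets of Cyp11a1 were at 0.05 and 0.04 and not called, while those of Star were at 1.18 and 1.88 and called higher. The theca sums ran from 4787 to 4950 in the young and from 5196 to 5225 in the old samples. Of 11 lymphocyte and plasmacytoid dendritic cell markers and 8 endothelial and blood markers none was called, and the sums of the former overlapped (from 320.7 to 333.2 and from 316.0 to 334.4) while the latter went from between 210.7 and 212.3 to between 238.6 and 262.2. With no fold minimum, Ptprc (0.82) and Nkg7 (0.59) were higher and Ms4a1 (-0.28), the brightest of the lymphocyte list, was lower, and of the endothelial and blood markers Alas2 (0.77) and Kdr (0.41) were higher and Emcn (-0.50) lower. Arrays give no marker a value of 0, and in such bulk samples more cells of a type and more RNA per cell cannot be told apart. The 3' minus 5' value of the Gapdh and beta-actin control probe sets was 0.97 ± 0.02 in young and 2.02 ± 0.025 in old follicles (log2, SD, n = 3 each, two-sided exact permutation test, p = 0.1, the smallest p that 3 samples against 3 allow), and that of the poly-A control RNAs, which are added before labelling, was 3.33 ± 0.08 and 4.08 ± 0.10 (same test, p = 0.1). The part of other cells, and of this 3' to 5' difference, in the values of Ifit1, Ifit2 and Ifit3 was not tested.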

How the data were processed

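RNA of secondary follicles from 3 young (9 weeks) and 3 old (32 weeks) mouse samples was measured on Affymetrix 3' expression arrays. The authors processed the scans with RMA (version: not given in the sources used here). They deposited intensity values on a linear scale, whose log2 was taken with no pseudocount. Arrays have no read depth, and the number of samples limits the precision.

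Probe sets were named by the platform's annotation, with symbols updated through gene IDs of RefSeq GRCm38.p6 (18032 of 18194 matched). Of 45101 probe sets, those with several symbols (932), those not listed (9211) and the controls (64, of which some were also not listed) were left out. The old and young samples were compared by limma version 3.58.1 under R 4.3.3, with linear models and empirical Bayes moderation, and two-sided p-values were adjusted by Benjamini-Hochberg over the 18193 genes. SAM, named in the study's methods, was run as an alternative from its published description. The steps were tested on simulated data.

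Promoters came from the RefSeq table and were aligned with Biopython 1.88 (match 1, mismatch -1, gap open -3, gap extension -0.5). Protein comparison was planned and not run, since no protein table was used here. In each list, the called members with the 4 smallest p (all where 5 or fewer) were named, as were Ifnb1, Ifng, Ifne, Ifnar1, Ifnar2, Stat2, Irf9, Irf3 and Cmtr1, all tested neighbours, and the 5 nearest genes per Ifit gene. Others (Ifnz, Ifna2, Jak1, Mavs, Tbk1, Socs1, Eif3m and markers) were chosen after their values were seen. Members and lists were chosen with earlier results of these data known.

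Replicate numbers were shared by the groups, but same-numbered samples did not deviate together, with correlations across genes between -0.0003 and 0.053, so no pairing was used.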

Additional observations from a re-analysis of the deposited data

How the results depend on the processing

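Each with 1 probe set, Ifit1, Ifit2 and Ifit3 kept their direction under the settings run on them. Over a further quantile normalization, cyclic loess, array weights and leaving out each sample, Ifit1 ran from 5.45 to 5.56, Ifit3 from 4.27 to 4.57 and Ifit2 from 1.91 to 1.95, the last under cyclic loess (1.95), which moved it by more than its replicate spread. The brighter probe sets of Ifit1bl1 and Ifit1bl2 changed sign after quantile normalization (0.02 and 0.03) and cyclic loess (0.02 and 0.04), and neither was called. A fold minimum of 1.5 gave 383 higher and 234 lower genes, and no minimum gave 1835 and 2422. At a fold of 1.5, 1 interferon gene was higher, 1 eIF3 gene lower and 1 neighbour higher. With no minimum, interferon genes gave 2 higher, receptors and kinases 1 lower, sensors and relay 1 lower, feedback inhibitors 2 lower, other effectors 14 higher, eIF3 genes 4 lower, cap enzymes 1 higher and 1 lower, and neighbours 2 higher and 1 lower. Averaging the probe sets of a gene gave 13 lower genes, with 2 sensor genes and 1 feedback inhibitor higher. Without probe sets shared between transcripts, 0 of the transcription factors were called, since Irf7 and Irf9 were then not tested, and 1 feedback inhibitor was higher. With genes above the median intensity only, 4 other effectors were higher, since fewer genes were tested. Leaving out each sample gave between 0 and 1 higher interferon genes, the 1 without old replicate 3. The longer response element held in 0.27% of windows, and 15 of 44 tested genes with it were higher, against 67 of 14408 without it. With the replicate number as a block, 117 genes were higher and 23 lower, and every list count was as without the block; correlations of same-numbered samples were 0.053, -0.0003 and 0.043. SAM gave 117 higher and 23 lower genes. In settings with no change named here, the counts stayed within 1.5 times, and the cause of the changes was otherwise not tested. With 3 samples per group, an exact test cannot go below p = 0.1, and Ifit1 and Ifit3 lay near the floor of the young arrays.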
